A study of Mus musculus with 9 samples.

Results

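Sodium, chloride and bicarbonate cross the plasma membrane through a small number of transporter families, and the members described here were taken by symbol: every gene whose symbol starts with Slc4a, Slc8a, Slc9a, Slc12a, Slc24a, Slc26a, Atp1a or Atp1b. These prefixes took 48 of the 18094 genes in the deposited table, of which 41 had enough counts to be tested. The prefixes also took 3 genes that encode no transporter, the scaffolds Slc9a3r1 and Slc9a3r2 and the adaptor protein gene Slc4a1ap, and these are named as such below. The RNA came from the endothelium of mouse hearts, pulled from fresh tissue with magnetic beads. BPH/2J is an inbred hypertensive line, and BPN/3J is the normotensive line bred beside it. Hypertensive BPH/2J mice were sampled at 4 and at 22 weeks of age and normotensive BPN/3J mice at 22 weeks, with 3 libraries in each of the 3 groups and no drug treatment or engineered allele in the labels. Each blood pressure state is represented by 1 line, so line and blood pressure cannot be told apart, and 4-week BPN/3J mice were not analysed here, so age and the course of hypertension cannot be told apart either. The labels do not say whether the libraries of a group came from separate or pooled animals. The p-values therefore reflect only how these libraries varied among themselves, and that variation may be technical.

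The Na,K-ATPase, built from an alpha and a beta chain, exports sodium and imports potassium, and the gradients it makes drive nearly all the other carriers of the set. The cotransporter NKCC1, encoded by Slc12a2, uses the sodium gradient to bring chloride into the cell, whereas the potassium-chloride cotransporters, such as KCC1, KCC2 and KCC4 encoded by Slc12a4, Slc12a5 and Slc12a7, let chloride out, so that their balance is known to set intracellular chloride and cell volume. WNK kinases, through the kinases SPAK and OSR1, activate NKCC1 and inhibit the KCC proteins. Sodium-proton exchangers of the SLC9 family and bicarbonate carriers of the SLC4 and SLC26 families regulate intracellular pH, and the SLC8 and SLC24 exchangers use sodium to extrude calcium. In endothelium these carriers are known for their part in volume regulation, pH control, calcium handling and the response to shear.

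Between 28806840 and 32913813 reads were counted per library. Levels are given as CPM, the read count per library rescaled to a common total, after TMM normalisation in edgeR, each library's values are listed in the order of replicates 1, 2 and 3, and differences are given as log2 with the standard error (SE) of the model. A gene was called when the adjusted p of edgeR's quasi-likelihood test was below 0.05. All 10 endothelial markers examined (Pecam1, Cdh5 and others) were present, with summed levels of 10055 to 10637 CPM in 22-week BPN/3J, 12274 to 12795 CPM in 4-week BPH/2J and 12796 to 13029 CPM in 22-week BPH/2J. Other heart cells were also represented. Of 14 cardiomyocyte markers, 13 were in the table and summed to 898 to 1115 CPM, 398 to 647 CPM and 529.6 to 643 CPM in the same order of groups. Of 11 erythroid markers, 8 were in the table and summed to 159.5 to 202 CPM, 75.4 to 148 CPM and 104 to 137 CPM. The 11 macrophage markers were all in the table and summed to 397 to 681 CPM, 441 to 861 CPM and 223 to 258 CPM. The 10 markers of pericytes and smooth muscle summed to 1294 to 1524 CPM, 1533 to 1912 CPM and 1495 to 1786 CPM, and the 7 fibroblast markers to 506 to 562 CPM, 320.3 to 503 CPM and 335 to 431 CPM. In such mixed RNA, fewer cells of a type and less RNA per cell cannot be told apart.

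The largest difference between the lines at 22 weeks was in Slc12a2, which was 5.08-fold lower in 22-week BPH/2J than in 22-week BPN/3J, followed by Slc12a5, which was 3.597-fold lower, while Slc26a10 was 2.09-fold higher. In this comparison of the 2 lines at 22 weeks, 6 of the 41 tested members were higher in BPH/2J, 9 were lower and 26 did not pass the test. That is 36.6% of the members, and 38.0% of all 15277 tested genes were called in the same comparison, with 19.8% higher and 18.2% lower. The median log2 difference was -0.12 over the members and 0.02 over all tested genes. In BPH/2J between 4 and 22 weeks, 9 members rose, 8 fell and 24 did not pass the test, which is 41.5% of the members against 41.0% of all genes, with 19.9% of all genes higher and 21.1% lower. Here Slc12a7 rose 1.95-fold and Slc26a10 1.86-fold, while Slc12a2 fell further. The median log2 difference was 0.05 over the members and 0.01 over all genes. The members counted as higher in each of these comparisons include Slc26a8, which entered the test only through 22-week BPH/2J, where it was highest. The share of members called was close to the share of all genes in both comparisons, so the set as a whole did not stand out, and the results lie in its single members.

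The comparison of 4-week BPH/2J with 22-week BPN/3J differs in line and in age, which cannot be told apart, and it shares all of its libraries with the other comparisons. In it 6 members were higher, 17 lower and 18 not called, which is 56.1% of the members against 53.1% of all tested genes (27.8% higher and 25.3% lower). The median log2 difference was -0.20 over the members and 0.00149 over all genes. Its values are given below beside those of the other comparisons where they bear on a member.

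**Figure D1:**
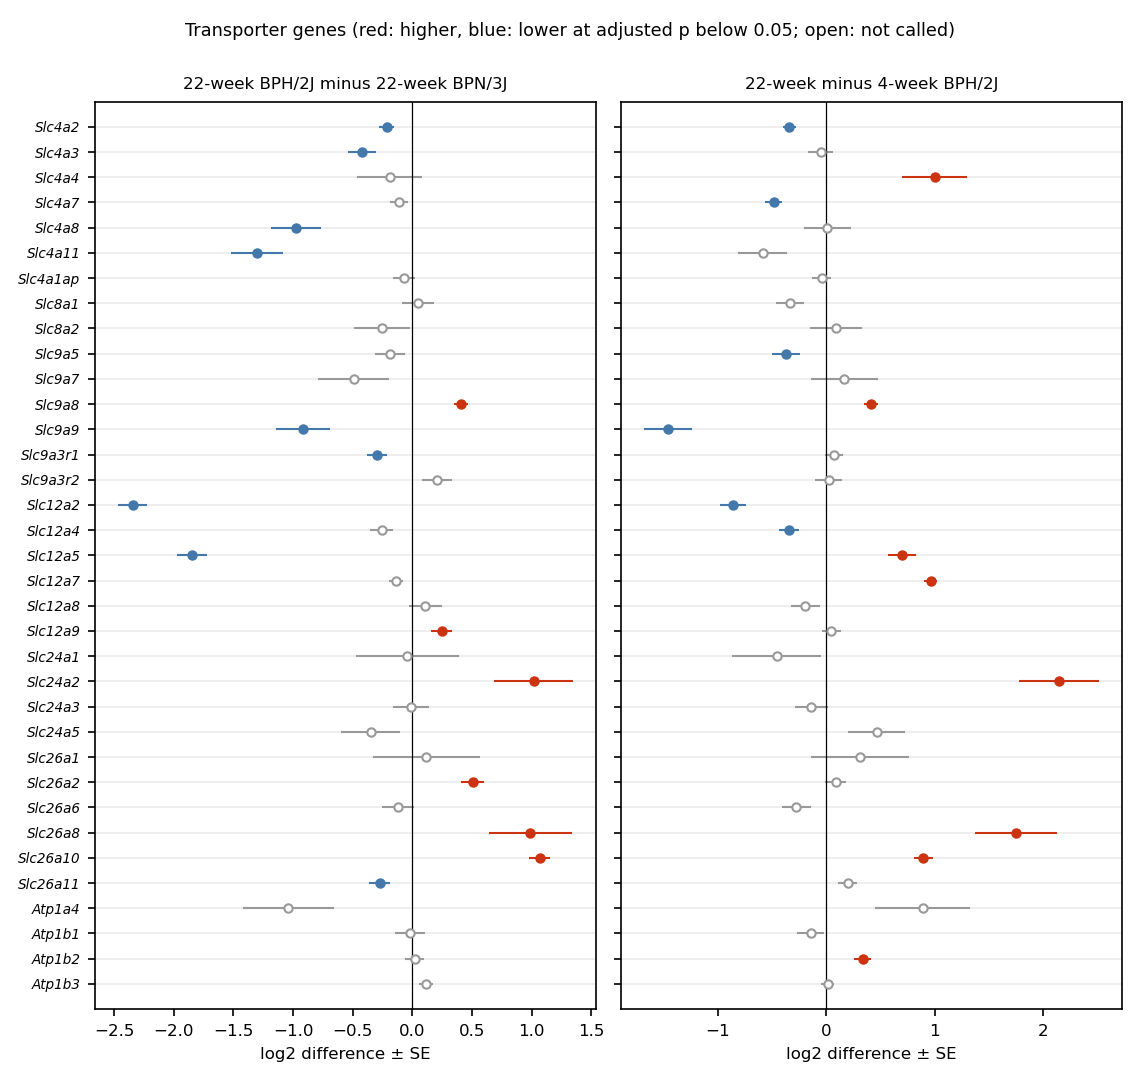
Log2 differences with their standard errors for the members reported here in the comparison of lines at 22 weeks and in the comparison of ages in BPH/2J. Slc12a2 (-2.35) and Slc12a5 (-1.85) lie furthest below 0 between the lines, and Slc26a10 (1.07) lies above 0 in that comparison and in the age comparison (0.90).

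The members covered a wide range of levels. Divided by the deposited gene length, so that genes can be compared, the highest mean levels over the 9 libraries were 523 CPM per kilobase for the scaffold Slc9a3r2, 92.6 for the Na,K-ATPase beta chain Atp1b3 and 91.8 for Slc26a10. The chloride cotransporter genes Slc12a4, Slc12a7 and Slc12a2 averaged 29.03, 25.5 and 21.8 CPM per kilobase. At the other end, 7 members had too few counts to be tested. These were the thiazide-sensitive cotransporter Slc12a3 with 1 to 11 counts per library, Slc26a3 with 1 to 10, Slc4a1 with 0 to 15, Slc4a10 with 0 to 5, Slc9a2 with 1 to 6, Slc9a3 with 0 to 5 and Slc9a4 with 0 to 11. A count of 0 allows a level of up to 0.0911 to 0.104 CPM, depending on the library, and this limit covers counting error only. Slc4a1, the anion exchanger of red cells, had 15 counts in replicate 2 of 4-week BPH/2J and 0 to 6 counts in the other libraries. A further 5 tested members, Slc24a1, Slc24a2, Slc26a1, Slc26a8 and Atp1a4, had a library below the filter's limit of 0.332 CPM in at least 1 group. Of these, Slc26a1 and Slc26a8 reached it in all 3 libraries of 22-week BPH/2J and of no other group, and Slc24a1 did so in no group. Slc26a8 is among the members counted above as called in both comparisons, although only the group where it was highest brought it into the test. In the GENCODE M21 annotation 12 members share exon bases with a neighbouring gene, among them Slc12a4, Slc26a10, Slc4a2, Atp1b1 and Slc8a1, and reads of the shared bases cannot be assigned with certainty.

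The gene of NKCC1, the carrier that brings chloride in, differed most between the lines at 22 weeks. Slc12a2 (ENSMUSG00000024597, on chromosome 18) measured 281, 259.6 and 281 CPM in 22-week BPN/3J, 80.5, 115 and 98.4 CPM in 4-week BPH/2J and 50.6, 60.1 and 50.9 CPM in 22-week BPH/2J. The 3 groups did not overlap, with every BPN/3J library above every BPH/2J library and every 4-week BPH/2J library above every 22-week one. The log2 difference between the lines at 22 weeks was -2.35 ± 0.12 (SE, adjusted p = 4.2e-07), that between ages in BPH/2J was -0.86 ± 0.12 (SE, adjusted p = 0.000309), a 1.82-fold fall, and that between 4-week BPH/2J and BPN/3J was -1.48 ± 0.12 (SE, adjusted p = 3.88e-06). No alternative ended any of these 3 calls. The between-line value ranged from -2.43 to -2.30 over the alternatives, which include leaving out each library. The cardiomyocyte, erythroid, fibroblast and macrophage marker sums given above were lower in 22-week BPH/2J than in 22-week BPN/3J too, and their part in this and the other lower members was not tested.

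The KCC genes encode the carriers that let chloride out. Slc12a5 (ENSMUSG00000017740, chromosome 2) encodes KCC2, known for lowering chloride in neurons. It measured 32.8, 40.7 and 36.8 CPM in 22-week BPN/3J, 6.75, 5.03 and 7.09 CPM in 4-week BPH/2J and 10.02, 9.94 and 10.7 CPM in 22-week BPH/2J. BPN/3J stood above both BPH/2J groups, and the 22-week BPH/2J libraries were above the 4-week ones, again without overlap. The log2 difference between lines at 22 weeks was -1.85 ± 0.12 (SE, adjusted p = 2.54e-06) and that between 4-week BPH/2J and BPN/3J was -2.54 ± 0.13 (SE, adjusted p = 2.55e-07), a 5.83-fold difference. With age Slc12a5 rose in BPH/2J by a log2 difference of 0.70 ± 0.13 (SE, adjusted p = 0.00201), whereas Slc12a2 fell. Of 8 neuron markers, a list added after the values had been seen, only Rbfox3 had a row, at 0 to 0.162 CPM, and the 6 markers of Schwann cells and nerve summed to 11.2 to 14.7 CPM, 8.03 to 11.1 CPM and 13.5 to 18.9 CPM in 22-week BPN/3J, 4-week BPH/2J and 22-week BPH/2J.

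Slc12a7 (ENSMUSG00000017756, chromosome 13), which encodes KCC4, was called between the ages of BPH/2J and not between the lines at 22 weeks. It measured 179, 189 and 187 CPM in 22-week BPN/3J, 89.1, 88.04 and 81.6 CPM in 4-week BPH/2J and 173, 160.4 and 171 CPM in 22-week BPH/2J, so that the 4-week libraries lay apart below the others. The rise from 4 to 22 weeks was 0.96 ± 0.06 (SE, adjusted p = 7.77e-06) on the log2 scale, and the 4-week libraries were 2.15-fold below 22-week BPN/3J, at -1.10 ± 0.06 (SE, adjusted p = 3.21e-07). At 22 weeks the lines differed by -0.14 ± 0.06 (SE, adjusted p = 0.084), which did not pass the test, although every BPH/2J library of that age was below every BPN/3J library. Slc12a4, the gene of the widely expressed KCC1, measured 127, 121 and 135 CPM in 22-week BPN/3J, 113, 145 and 149 CPM in 4-week BPH/2J and 105, 111 and 105 CPM in 22-week BPH/2J. Its log2 difference between lines at 22 weeks was -0.26 ± 0.09 (SE, adjusted p = 0.0517). This did not pass the test, although the libraries of the lines did not overlap. Slc12a4 fell with age by a log2 difference of -0.34 ± 0.09 (SE, adjusted p = 0.0143). All 3 of its 22-week BPH/2J libraries lay below the 4-week ones. This call was lost without replicate 2 or 3 of 4-week BPH/2J or replicate 1 or 3 of 22-week BPH/2J (adjusted p = 0.0538 to 0.0738).

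Slc12a9, which encodes a relative of these cotransporters with no settled substrate, measured 17.2, 16.3 and 17.9 CPM in 22-week BPN/3J, 21.4, 19.3 and 18.3 CPM in 4-week BPH/2J and 18.7, 20.7 and 21.6 CPM in 22-week BPH/2J. It was just past the threshold between lines at 22 weeks, at 0.24 ± 0.09 (SE, adjusted p = 0.0483), and the call was lost without any 1 replicate of 22-week BPN/3J or replicate 2 of 4-week BPH/2J or replicate 2 or 3 of 22-week BPH/2J and under 5 other settings (adjusted p = 0.0521 to 0.15). Slc12a8, at a mean of 5.19 ± 0.32 CPM, 6.402 ± 0.709 CPM and 5.59 ± 0.66 CPM (SD, n = 3) in the same order of groups, was called in no comparison. Of the 7 tested Slc12a members, 1 was higher and 2 lower between lines at 22 weeks (38.0% of all tested genes called). With age in BPH/2J (41.0% of all tested genes called) 2 rose and 2 fell.

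The level of Slc12a2 relative to these KCC genes was computed per library as Slc12a2 over the sum of Slc12a4, Slc12a5 and Slc12a7, each per kilobase. The sum does not hold every KCC gene, so the ratio would be lower against all of them. In 22-week BPN/3J this ratio was 0.623 ± 0.0308, against 0.313 ± 0.0351 for 4-week BPH/2J and 0.148 ± 0.0162 for 22-week BPH/2J (SD, n = 3). The sum itself was 67.4 ± 1.95, 47.8 ± 4.05 and 55.8 ± 0.473 CPM per kilobase in the same order, while Slc12a2 was 42.004 ± 1.897, 15.03 ± 2.66 and 8.26 ± 0.832 CPM per kilobase. Among all Slc12a transcripts per kilobase, Slc12a2 made up 31.5 ± 1.02%, 17.8 ± 1.63% and 9.46 ± 0.903% (SD, n = 3). These ratios describe RNA and say nothing of protein level or phosphorylation.

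**Figure D2:**
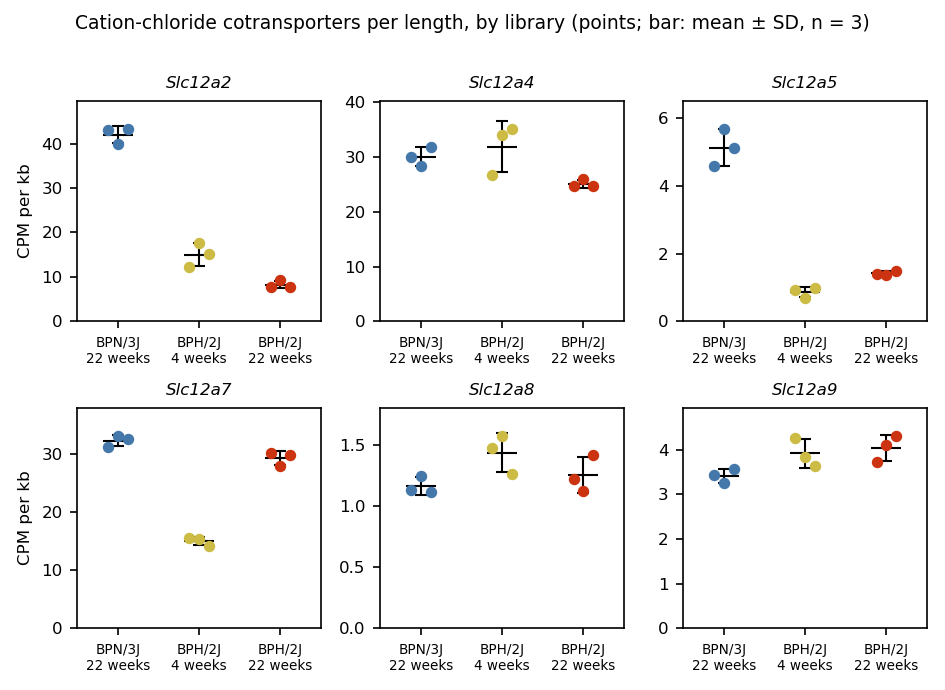
Levels of 6 Slc12a genes in each library (points, TMM-scaled CPM per kilobase of gene length) with the group mean and SD (n = 3), in 22-week BPN/3J, 4-week BPH/2J and 22-week BPH/2J. Slc12a2 steps down from 42.004 ± 1.897 to 15.03 ± 2.66 to 8.26 ± 0.832 CPM per kilobase, Slc12a5 is highest in BPN/3J, and Slc12a7 is lowest in 4-week BPH/2J.

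**Figure D3:**
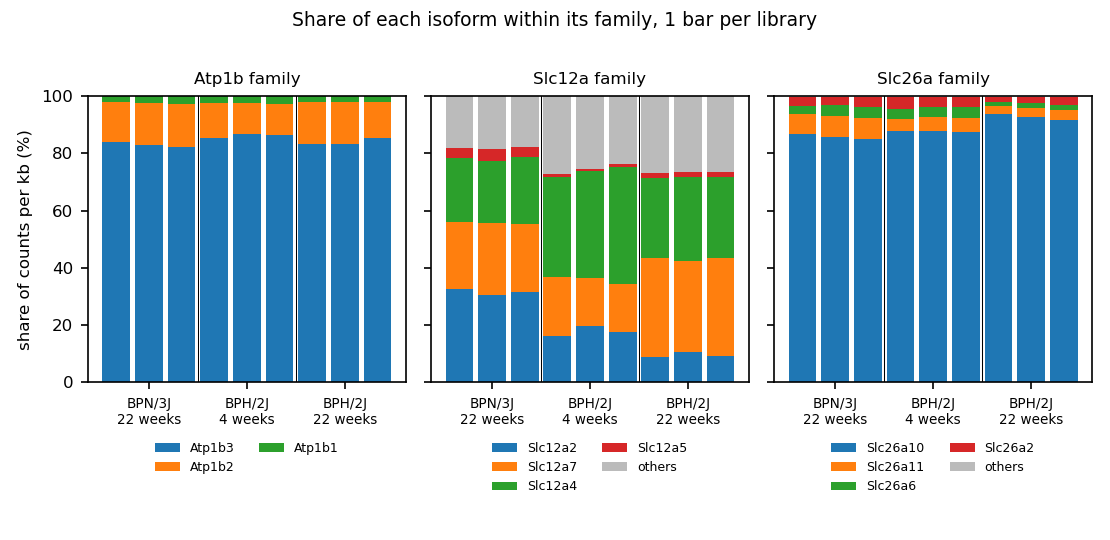
Share of each gene in the summed level of its family, per kilobase, with 1 bar for each of the 9 libraries. The mean share of Slc12a2 is 31.5% for 22-week BPN/3J, 17.8% for 4-week BPH/2J and 9.46% for 22-week BPH/2J, whereas Atp1b3 and Slc26a10 hold the largest share of their families in every library.

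The start regions of 3 of the members that differed most are shown because their RNA moved in different ways with line and age. They are RefSeq promoters of the build GRCm38.p6, from 250 bases before to 50 bases after the start, taken by symbol from a table that held 34 of the 48 members and not Slc12a2. Slc12a5 has 2 starts, at chr2:164960596-164960895 and chr2:164967738-164968037 on the plus strand. Slc12a7 starts at chr13:73763410-73763709 on the plus strand, with an overlapping second start that is not printed. Slc26a10 starts at chr10:127180533-127180832 on the minus strand. Capitals mark GGGCGG or its reverse complement CCGCCC, the E-box CACGTG, and TATAAA or its reverse complement TTTATA, all written 5′ to 3′ on the gene's strand.
Slc12a5 start 1: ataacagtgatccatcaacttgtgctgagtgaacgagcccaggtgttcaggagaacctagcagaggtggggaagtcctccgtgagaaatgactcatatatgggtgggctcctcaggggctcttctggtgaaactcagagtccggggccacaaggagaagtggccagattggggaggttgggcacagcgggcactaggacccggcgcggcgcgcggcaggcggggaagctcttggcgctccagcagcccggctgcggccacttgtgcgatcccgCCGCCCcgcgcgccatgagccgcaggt
Slc12a5 start 2: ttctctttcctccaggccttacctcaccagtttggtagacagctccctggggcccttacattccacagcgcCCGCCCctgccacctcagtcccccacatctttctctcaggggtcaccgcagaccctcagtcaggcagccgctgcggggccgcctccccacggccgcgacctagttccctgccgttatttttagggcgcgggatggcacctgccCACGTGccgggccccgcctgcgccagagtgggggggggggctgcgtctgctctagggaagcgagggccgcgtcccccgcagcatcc
Slc12a7 start 1: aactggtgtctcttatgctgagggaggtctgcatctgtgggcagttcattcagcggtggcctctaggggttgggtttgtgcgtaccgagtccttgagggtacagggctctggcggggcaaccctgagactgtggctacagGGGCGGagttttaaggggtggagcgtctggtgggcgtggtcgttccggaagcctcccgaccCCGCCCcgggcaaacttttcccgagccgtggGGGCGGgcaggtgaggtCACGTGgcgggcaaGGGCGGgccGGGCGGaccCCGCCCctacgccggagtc
Slc26a10: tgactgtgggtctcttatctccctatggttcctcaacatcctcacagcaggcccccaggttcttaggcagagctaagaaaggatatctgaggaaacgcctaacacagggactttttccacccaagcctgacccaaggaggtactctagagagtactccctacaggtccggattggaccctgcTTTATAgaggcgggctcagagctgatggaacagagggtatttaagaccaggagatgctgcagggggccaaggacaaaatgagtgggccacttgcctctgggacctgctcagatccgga
The Slc12a7 window held 6 matches to GGGCGG on either strand and 1 CACGTG. Each Slc12a5 window held 1 GGGCGG match, and that of the second start also held 1 CACGTG. The Slc26a10 window held 1 TATAAA match and neither of the other motifs. Over all 32851 RefSeq promoters of this length, GGGCGG was found in 35.7%, CACGTG in 7.15% and TATAAA in 13.6%. Among the 46 promoters of the members, the counts were 21, 7 and 7. No match overlapped another in the printed windows. A match describes the sequence and is no evidence that a factor bound there.

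The kinases and ligases that act on these cotransporters included some that were higher and some that were lower in each comparison. Of 15 genes of the WNK pathway, 13 were in the table and tested. Between lines at 22 weeks (38.0% of all tested genes called) 1 was higher and 3 lower, with a median log2 difference of -0.09. With age in BPH/2J (41.0% of all tested genes called) 1 rose and 3 fell, with a median of -0.07. Sgk1, an aldosterone- and stress-responsive kinase that acts on several sodium carriers, was the most different of them. It measured 1523, 1364 and 1219.8 CPM in 22-week BPN/3J, 658, 863 and 835 CPM in 4-week BPH/2J and 596, 663 and 631 CPM in 22-week BPH/2J. Every BPN/3J library was above every BPH/2J library, and the difference between lines at 22 weeks was -1.12 ± 0.12 (SE, adjusted p = 5.03e-05). Its fall with age, at -0.32 ± 0.11 (SE, adjusted p = 0.0459), was lost without replicate 2 of 22-week BPN/3J or replicate 2 or 3 of 4-week BPH/2J or any 1 replicate of 22-week BPH/2J and under 4 other settings (adjusted p = 0.0515 to 0.154). Klhl2, which targets WNK kinases for degradation, was also lower between lines, at -0.48 ± 0.09 (SE, adjusted p = 0.00194). Cab39, which encodes a scaffold that activates SPAK and OSR1, was higher, at 0.23 ± 0.06 (SE, adjusted p = 0.0138), a call that was lost without replicate 1 of 22-week BPH/2J (adjusted p = 0.0522).

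With age, Stk39, the gene of SPAK itself, fell in BPH/2J. It measured 13.9, 13.3 and 15.6 CPM in 22-week BPN/3J, 20.4, 26.3 and 28.2 CPM in 4-week BPH/2J and 17.2, 15.2 and 16.4 CPM in 22-week BPH/2J, so that all 4-week libraries were above all 22-week libraries of either line. The difference between ages was -0.62 ± 0.12 (SE, adjusted p = 0.0024). Wnk1 measured 568, 834 and 763 CPM at 4 weeks and 533, 579 and 511 CPM at 22 weeks in BPH/2J. These groups overlapped, since replicate 1 at 4 weeks lay below replicate 2 at 22 weeks. The log2 difference was -0.42 ± 0.12 (SE, adjusted p = 0.0194), and the call was lost without replicate 2 or 3 of 4-week BPH/2J or replicate 1 or 3 of 22-week BPH/2J (adjusted p = 0.0668 to 0.0781). The activator Cab39l rose, at 0.28 ± 0.07 (SE, adjusted p = 0.0106).

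Of the anion transporters of the SLC26 family, Slc26a10 had the highest level per kilobase and the largest difference between lines at 22 weeks. It encodes a little-studied member of the family. Slc26a10 (chromosome 10) measured 248, 232 and 238 CPM in 22-week BPN/3J, 268, 283 and 257 CPM in 4-week BPH/2J and 556, 508 and 440.4 CPM in 22-week BPH/2J. The 22-week BPH/2J libraries lay above all 6 others. The difference was 1.07 ± 0.09 (SE, adjusted p = 9.14e-06) between lines at 22 weeks and 0.90 ± 0.08 (SE, adjusted p = 3.6e-05) between ages, whereas 4-week BPH/2J and BPN/3J differed by 0.17 ± 0.08 (SE, adjusted p = 0.112), which did not pass the test. Neither call was lost under any alternative. Exons of Slc26a10 share bases with those of B4galnt1 on the opposite strand, and the strandedness of the counting is not given in the sources used here, so reads of the shared part cannot be assigned. B4galnt1 was counted at 8.47, 7.37 and 7.47 CPM in 22-week BPN/3J, 5.97, 5.55 and 6.57 CPM in 4-week BPH/2J and 7.39, 7.498 and 9.504 CPM in 22-week BPH/2J.

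Slc26a2, a sulfate transporter that supplies proteoglycan sulfation, was higher in BPH/2J. It measured 20.7, 18.5 and 22.4 CPM in 22-week BPN/3J, 30.1, 27.6 and 24.7 CPM in 4-week BPH/2J and 27.8, 28.4 and 31.2 CPM in 22-week BPH/2J. All 6 BPH/2J libraries were above the 3 BPN/3J libraries, and the log2 difference at 22 weeks was 0.50 ± 0.10 (SE, adjusted p = 0.00238), while the ages of BPH/2J differed by 0.08 ± 0.09 (SE, adjusted p = 0.506). Slc26a11, a broadly expressed anion transporter, went the other way, at 19.6, 19.04 and 20.6 CPM in 22-week BPN/3J, 12.9, 15.4 and 14.5 CPM in 4-week BPH/2J and 15.2, 16.8 and 17.04 CPM in 22-week BPH/2J. The difference between lines at 22 weeks was -0.27 ± 0.09 (SE, adjusted p = 0.0324), and it was lost without any 1 replicate of 22-week BPN/3J or any 1 replicate of 22-week BPH/2J (adjusted p = 0.0546 to 0.128). Slc26a8, a testis transporter by its known expression, measured 0.135, 0.313 and 0.281 CPM in 22-week BPN/3J, 0.163, 0.103 and 0.153 CPM in 4-week BPH/2J and 0.389, 0.515 and 0.548 CPM in 22-week BPH/2J. Since only the last group brought it into the test, these values are a description, and its calls are left out of the family's counts. Of the 5 other tested Slc26a members, 2 were higher and 1 lower between lines at 22 weeks (38.0% of all tested genes called). With age in BPH/2J (41.0% of all tested genes called) 1 rose and 4 were not called. Slc26a6, a chloride-bicarbonate exchanger, was not called in any comparison.

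Sodium-proton exchange was represented by 8 tested Slc9a symbols, of which 6 are exchangers and 2 the NHERF scaffolds. Between lines at 22 weeks (38.0% of all tested genes called) 1 was higher and 2 were lower. With age in BPH/2J (41.0% of all tested genes called) 2 rose and 3 fell. Slc9a8, the gene of NHE8 of the Golgi and endosomal membranes, measured 35.4, 34.5 and 34.3 CPM in 22-week BPN/3J, 35.8, 36.02 and 32.02 CPM in 4-week BPH/2J and 45.3, 46.6 and 46.2 CPM in 22-week BPH/2J. As with Slc26a10, the 22-week BPH/2J libraries lay above the 6 others. The log2 difference was 0.41 ± 0.06 (SE, adjusted p = 0.000599) between lines and 0.41 ± 0.06 (SE, adjusted p = 0.000509) between ages. Slc9a9, the gene of the endosomal NHE9, was lowest in the same group, at 2.79, 2.09 and 2.77 CPM, against 6.08, 3.86 and 4.49 CPM in 22-week BPN/3J and 5.38, 7.31 and 8.38 CPM in 4-week BPH/2J. The difference was -0.91 ± 0.23 (SE, adjusted p = 0.00942) between lines and -1.46 ± 0.22 (SE, adjusted p = 0.000571) between ages, a 2.75-fold fall. Macrophage markers moved with it: their sum was 680.5, 397 and 447 CPM in 22-week BPN/3J, 441, 636.5 and 861 CPM in 4-week BPH/2J and 223, 258 and 258 CPM in 22-week BPH/2J. Of the 11 macrophage markers, 10 were called lower between lines at 22 weeks (18.2% of all tested genes) and 11 lower with age (21.1%). Their part in Slc9a9 was not tested.

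Slc9a5, the gene of NHE5, measured 17.9, 19.5 and 22.1 CPM in 22-week BPN/3J, 20.7, 25.5 and 21.3 CPM in 4-week BPH/2J and 17.4, 19.9 and 14.9 CPM in 22-week BPH/2J. The ages did not overlap, and the fall with age was -0.37 ± 0.13 (SE, adjusted p = 0.0355). This call was lost without replicate 2 of 22-week BPN/3J or replicate 2 or 3 of 4-week BPH/2J or replicate 1 or 3 of 22-week BPH/2J (adjusted p = 0.0512 to 0.145). Slc9a7 was not called.

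The scaffold NHERF1, encoded by Slc9a3r1, ties exchangers to the cytoskeleton. Slc9a3r1 measured 21.9, 25.1 and 24.03 CPM in 22-week BPN/3J, 20.1, 16.6 and 18.3 CPM in 4-week BPH/2J and 19.5, 18.9 and 19.4 CPM in 22-week BPH/2J, so that BPN/3J was above both BPH/2J groups. The difference between lines at 22 weeks was -0.30 ± 0.09 (SE, adjusted p = 0.0196), and the call was lost without replicate 2 or 3 of 22-week BPN/3J or any 1 replicate of 22-week BPH/2J (adjusted p = 0.0533 to 0.0764). Its relative Slc9a3r2, the gene of NHERF2, had the highest level per kilobase in the set, at 1134, 1078 and 1016 CPM in 22-week BPN/3J, 942, 1364 and 1365 CPM in 4-week BPH/2J and 1297, 1214 and 1210.1 CPM in 22-week BPH/2J. It was not called in either comparison, at 0.21 ± 0.13 (SE, adjusted p = 0.23) between lines and 0.02 ± 0.13 (SE, adjusted p = 0.917) between ages. Replicate 1 of 4-week BPH/2J was the lowest library of its group, and without it the difference between lines was called, at 0.21 (adjusted p = 0.0187), as it was in a fit of the 2 groups compared (adjusted p = 0.0405). The sign of the value between ages turned to -0.13 without the same library and to -0.00686 without replicate 1 of 22-week BPH/2J.

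Of 9 partner proteins of the exchangers and cotransporters, 8 were tested. Between lines at 22 weeks (38.0% of all tested genes called) 2 were higher and 3 lower, with a median log2 difference of 0.09. With age (41.0% of all tested genes called) 4 rose and 1 fell, with a median of 0.15. Ahcyl2, which encodes a relative of the bicarbonate cotransporter activator IRBIT, was higher in 22-week BPH/2J, at 37.98, 34.3 and 34.4 CPM, than in 22-week BPN/3J, at 25.8, 23.8 and 24.3 CPM, or 4-week BPH/2J, at 26.1, 28.1 and 28.3 CPM. The differences were 0.53 ± 0.07 (SE, adjusted p = 0.000252) and 0.37 ± 0.07 (SE, adjusted p = 0.00187). Among the linker proteins that NHERF scaffolds bind, Ezr was lower between lines, at -0.55 ± 0.10 (SE, adjusted p = 0.00201), and Msn fell with age, at -0.47 ± 0.08 (SE, adjusted p = 0.00155). Rdx was higher between lines, at 0.21 ± 0.07 (SE, adjusted p = 0.0391), a call that was lost without replicate 2 or 3 of 22-week BPN/3J or replicate 3 of 4-week BPH/2J or replicate 1 or 3 of 22-week BPH/2J and under 2 other settings (adjusted p = 0.0512 to 0.131). Chp1, which encodes a partner that sodium-proton exchangers need, was lower between lines, at -0.28 ± 0.05 (SE, adjusted p = 0.00259). Chp2, its relative, rose with age, at 1.02 ± 0.29 (SE, adjusted p = 0.0174), a call that was lost without replicate 2 of 4-week BPH/2J or replicate 3 of 22-week BPH/2J (adjusted p = 0.0503 to 0.0655).

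**Figure D4:**
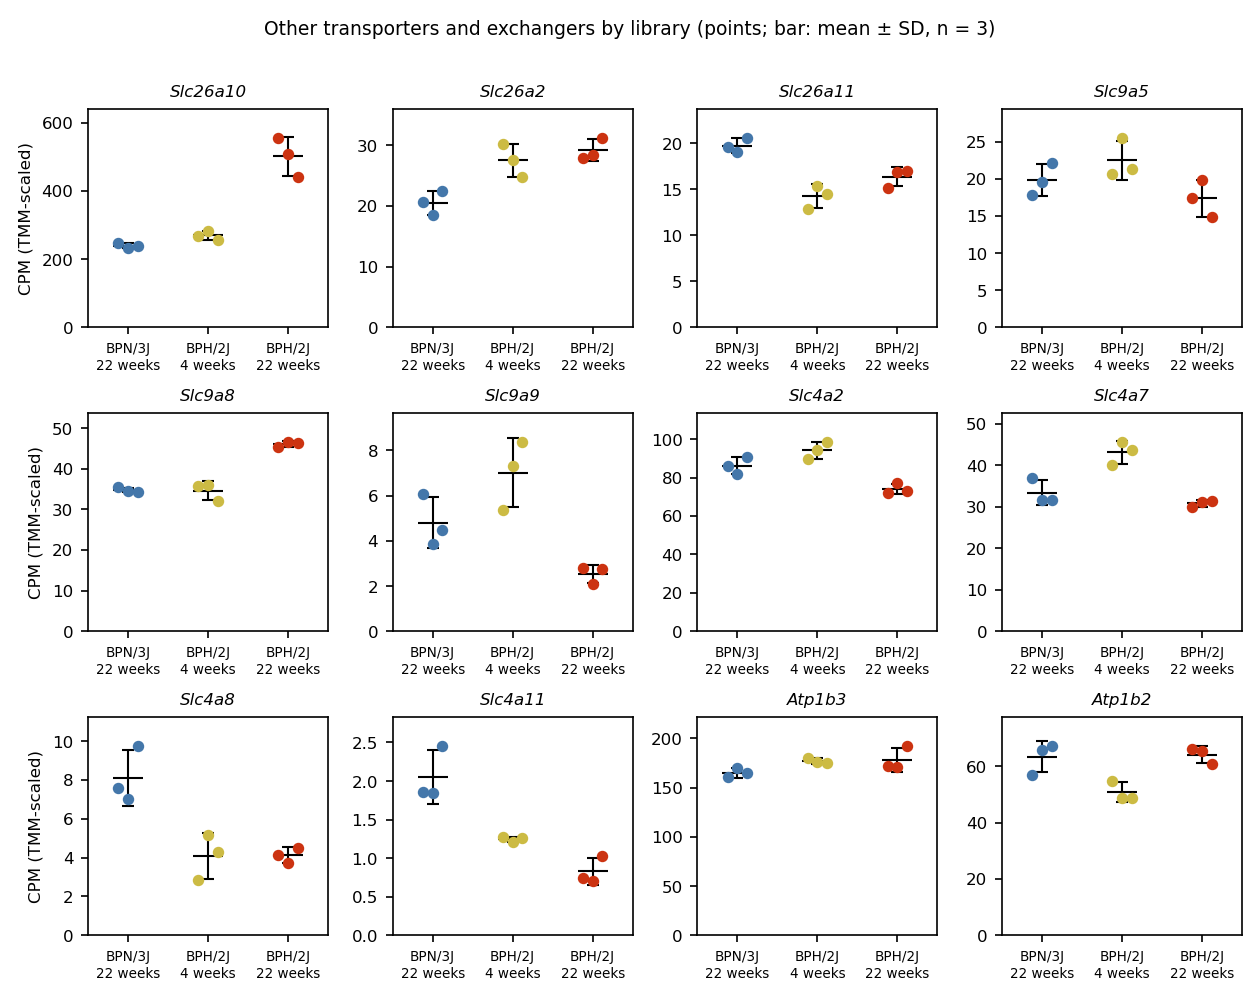
Levels in each library (points, TMM-scaled CPM) with the group mean and SD (n = 3) for 12 members outside the Slc12a family. Slc26a10 and Slc9a8 are highest in 22-week BPH/2J, Slc9a9 is lowest there, and Slc4a7 is highest in 4-week BPH/2J.

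The SLC4 family of bicarbonate carriers was represented by 7 tested Slc4a symbols, among them the adaptor protein gene Slc4a1ap, which is no carrier. At 22 weeks 4 were lower in BPH/2J than in BPN/3J, where 18.2% of all tested genes were lower. The other 3, Slc4a1ap among them, were not called. The median log2 difference was -0.22 over the 7 members, Slc4a1ap included, and 0.02 over all tested genes. The calls of Slc4a2 and Slc4a3 were each lost without certain single libraries, as given with their values. With age (41.0% of all tested genes called) 1 rose and 2 fell. Slc4a8, the gene of a sodium-driven chloride-bicarbonate exchanger, measured 7.595, 7.02 and 9.75 CPM in 22-week BPN/3J, 2.84, 5.17 and 4.298 CPM in 4-week BPH/2J and 4.15, 3.701 and 4.51 CPM in 22-week BPH/2J. All BPN/3J libraries were above all BPH/2J libraries. The difference was -0.98 ± 0.21 (SE, adjusted p = 0.00456) between lines at 22 weeks and 0.01 ± 0.22 (SE, adjusted p = 0.981) between ages. Slc4a11, best known for the dystrophy of the corneal endothelium that follows its loss, measured 1.86, 1.84 and 2.46 CPM in 22-week BPN/3J, 1.27, 1.21 and 1.26 CPM in 4-week BPH/2J and 0.746, 0.708 and 1.03 CPM in 22-week BPH/2J. The difference between lines at 22 weeks was -1.30 ± 0.22 (SE, adjusted p = 0.00116), and the groups did not overlap.

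The chloride-bicarbonate exchanger AE2, which loads cells with acid, is encoded by Slc4a2. It measured 86.2, 81.97 and 90.5 CPM in 22-week BPN/3J, 89.5, 94.2 and 98.6 CPM in 4-week BPH/2J and 72.2, 77.3 and 73.2 CPM in 22-week BPH/2J. The 22-week BPH/2J libraries were below all others. The difference with age was -0.34 ± 0.06 (SE, adjusted p = 0.00137). Between lines it was -0.22 ± 0.06 (SE, adjusted p = 0.0171), which was lost without replicate 3 of 22-week BPN/3J or replicate 1 or 3 of 22-week BPH/2J (adjusted p = 0.0602 to 0.0724). Its exons share bases with those of Fastk on the opposite strand, counted at 45.5 to 54.3 CPM over the 9 libraries. Slc4a3, the gene of AE3 of heart and brain, measured 13.3, 12.8 and 14.9 CPM, 10.7, 9.997 and 10.96 CPM and 11.6, 8.85 and 10.1 CPM in the same order of groups. The difference between lines at 22 weeks was -0.42 ± 0.11 (SE, adjusted p = 0.0147), and it was lost without replicate 3 of 22-week BPN/3J or replicate 2 of 22-week BPH/2J (adjusted p = 0.0559 to 0.0579). Of the 13 cardiomyocyte markers in the table, 4 were not called in this comparison and 9 were called lower (18.2% of all tested genes). So were 10 of 11 macrophage markers, 4 of 7 tested erythroid markers and 3 of 7 fibroblast markers, with none of these lists holding a higher one. Of the 10 markers of pericytes and smooth muscle, 1 was higher and 1 lower. The part of any of these cells in Slc4a3 was not tested.

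Slc4a7, the gene of the sodium-bicarbonate cotransporter NBCn1, was highest in 4-week BPH/2J. It measured 36.8, 31.7 and 31.5 CPM in 22-week BPN/3J, 40.1, 45.6 and 43.6 CPM in 4-week BPH/2J and 29.9, 31.2 and 31.3 CPM in 22-week BPH/2J, with the 4-week libraries above all others. It fell with age by a log2 difference of -0.49 ± 0.08 (SE, adjusted p = 0.000753), while at 22 weeks the lines differed by -0.11 ± 0.08 (SE, adjusted p = 0.268). Slc4a4, the gene of the electrogenic cotransporter NBCe1, was near 1 CPM, at 0.457, 0.448 and 0.522 CPM at 4 weeks and 0.811, 0.708 and 1.35 CPM at 22 weeks in BPH/2J. Its rise was 1.00 ± 0.30 (SE, adjusted p = 0.0223), and it was lost without replicate 2 of 4-week BPH/2J or replicate 3 of 22-week BPH/2J (adjusted p = 0.0671 to 0.0987). The adaptor protein gene Slc4a1ap was not called, at 23.0 to 29.5 CPM.

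Carbonic anhydrases make the bicarbonate that these carriers move. Of 13 genes, 10 were in the table and 8 were tested. Between lines at 22 weeks (38.0% of all tested genes called) 2 were higher and 1 lower, with a median log2 difference of -0.02. With age (41.0% of all tested genes called) 2 rose and 1 fell, with a median of 0.15. Car7, a cytosolic enzyme, measured 64.4, 61.3 and 57.2 CPM in 22-week BPN/3J, 60.6, 47.1 and 38.9 CPM in 4-week BPH/2J and 92.5, 87.9 and 83.1 CPM in 22-week BPH/2J. The 22-week BPH/2J libraries were above all others, with differences of 0.53 ± 0.13 (SE, adjusted p = 0.00922) between lines and 0.85 ± 0.13 (SE, adjusted p = 0.000609) between ages. Car4, the enzyme on the outer surface of capillary endothelium, was measured at 189.6 to 276 CPM and was called in neither of these comparisons. The mitochondrial Car5b rose with age, at 0.80 ± 0.19 (SE, adjusted p = 0.00807). The hypoxia-responsive Car9 was near 1 CPM and lower in 22-week BPH/2J, at -1.03 ± 0.33 (SE, adjusted p = 0.0331) between lines, lost without replicate 3 of 22-week BPN/3J or replicate 2 or 3 of 22-week BPH/2J and under 1 other setting (adjusted p = 0.0572 to 0.139), and at -0.99 ± 0.33 (SE, adjusted p = 0.0355) between ages, lost without replicate 2 or 3 of 4-week BPH/2J or replicate 2 or 3 of 22-week BPH/2J and under 1 other setting (adjusted p = 0.0581 to 0.13). Car13 was higher between lines, at 0.70 ± 0.20 (SE, adjusted p = 0.0204), lost without replicate 2 of 22-week BPN/3J or replicate 2 or 3 of 22-week BPH/2J (adjusted p = 0.0537 to 0.0773).

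Of the beta chains of the sodium pump, which bring the enzyme to the membrane, Atp1b2 differed with age. It measured 56.98, 65.7 and 67.2 CPM in 22-week BPN/3J, 54.8, 48.7 and 48.8 CPM in 4-week BPH/2J and 65.99, 65.5 and 60.7 CPM in 22-week BPH/2J. The 4-week libraries were below all others, the rise with age was 0.33 ± 0.08 (SE, adjusted p = 0.00642), and the lines at 22 weeks differed by 0.02 ± 0.08 (SE, adjusted p = 0.878). Atp1b3, the beta chain with the highest level per kilobase, measured 160.5, 169.9 and 165 CPM, 180.0, 176 and 175 CPM and 172, 171 and 192 CPM in the same order. Its differences of 0.11 ± 0.06 (SE, adjusted p = 0.166) between lines and 0.01 ± 0.06 (SE, adjusted p = 0.886) between ages were not called, and the latter turned to -0.04 without replicate 3 of 22-week BPH/2J. Per kilobase, Atp1b3 made up 83.1 ± 1.04% of the beta chains in 22-week BPN/3J, against 86.2 ± 0.611% for 4-week BPH/2J and 84.0 ± 1.30% for 22-week BPH/2J (SD, n = 3). Atp1b1 was called in neither comparison.

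The alpha chain Atp1a4, known from sperm, was at 1.72, 2.397 and 2.596 CPM in 22-week BPN/3J, 1.14, 0.276 and 0.338 CPM in 4-week BPH/2J and 1.07, 1.06 and 1.13 CPM in 22-week BPH/2J. The lines at 22 weeks differed by -1.04 ± 0.38 (SE, adjusted p = 0.0528) and the ages by 0.89 ± 0.44 (SE, adjusted p = 0.129), neither of which passed the test, and 4-week BPH/2J was lower than BPN/3J, at -1.93 ± 0.41 (SE, adjusted p = 0.00267). Of the 13 cardiomyocyte markers, 11 were called lower in that last comparison too (25.3% of all tested genes). Of the 7 tested erythroid markers 4 were lower, and of the 7 fibroblast markers 4 were lower and 2 higher. The part of these cells was not tested.

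Of 11 FXYD and other partners of the pump, 8 were in the table and 6 were tested. Between lines at 22 weeks (38.0% of all tested genes called) 1 was higher and 1 lower, with a median log2 difference of -0.38. That median rests in part on genes with few counts. Fxyd2 (-0.52) and Nkain1 (-0.86) reached the filter's limit in all 3 libraries of no group, and Fxyd7 (-1.20) only in 22-week BPN/3J. Fxyd1, Fxyd5 and Fxyd6, which reached it in every group, differed by -0.25, 0.45 and 0.23. With age (41.0% of all tested genes called) 1 fell and 5 were not called, with a median of -0.11. Fxyd5, known as dysadherin, measured 62.7, 63.2 and 57.9 CPM in 22-week BPN/3J, 92.2, 108 and 121 CPM in 4-week BPH/2J and 76.6, 79.9 and 94.7 CPM in 22-week BPH/2J. It was higher in BPH/2J at 22 weeks, at 0.45 ± 0.10 (SE, adjusted p = 0.00707). The ages overlapped, and the fall of -0.35 ± 0.10 (SE, adjusted p = 0.0203) was lost without replicate 2 or 3 of 4-week BPH/2J or replicate 1 or 2 of 22-week BPH/2J (adjusted p = 0.0511 to 0.0966). Fxyd7, the 1 gene counted as lower between lines, measured 0.405, 0.382 and 0.561 CPM in 22-week BPN/3J, 0.131, 0.138 and 0.0921 CPM in 4-week BPH/2J and 0.259, 0.225 and 0.0967 CPM in 22-week BPH/2J. It passed the filter on low counts only through BPN/3J, the group where it was highest, so its values are a description.

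Sodium-calcium exchangers were measured at low levels. Slc8a1, the exchanger of heart muscle and many other cells, measured 6.52, 6.64 and 7.65 CPM in 22-week BPN/3J, 9.27, 7.72 and 10.1 CPM in 4-week BPH/2J and 7.39, 6.404 and 7.7001 CPM in 22-week BPH/2J. It was called neither between lines at 22 weeks, at 0.05 ± 0.13 (SE, adjusted p = 0.801), nor between ages, at -0.34 ± 0.13 (SE, adjusted p = 0.0643). Slc24a2, the potassium-dependent exchanger of cones and neurons, measured 0.473, 0.521 and 0.807 CPM, 0.392, 0.241 and 0.184 CPM and 1.59, 0.837 and 1.22 CPM in the same order. The 22-week BPH/2J libraries were above all others. The rise with age was 2.15 ± 0.37 (SE, adjusted p = 0.00123), and no alternative in which Slc24a2 was tested ended it. With the filter of 1 CPM in 3 libraries it left the test. Replicates 2 and 3 of 4-week BPH/2J lay below the main filter's limit of 0.332 CPM. The difference between lines, at 1.02 ± 0.33 (SE, adjusted p = 0.0336), was lost without replicate 1 or 2 of 22-week BPN/3J or replicate 1 or 3 of 22-week BPH/2J (adjusted p = 0.0776 to 0.127). Slc8a2, Slc24a1, Slc24a3 and Slc24a5 were called in neither comparison.

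**Figure D5:**
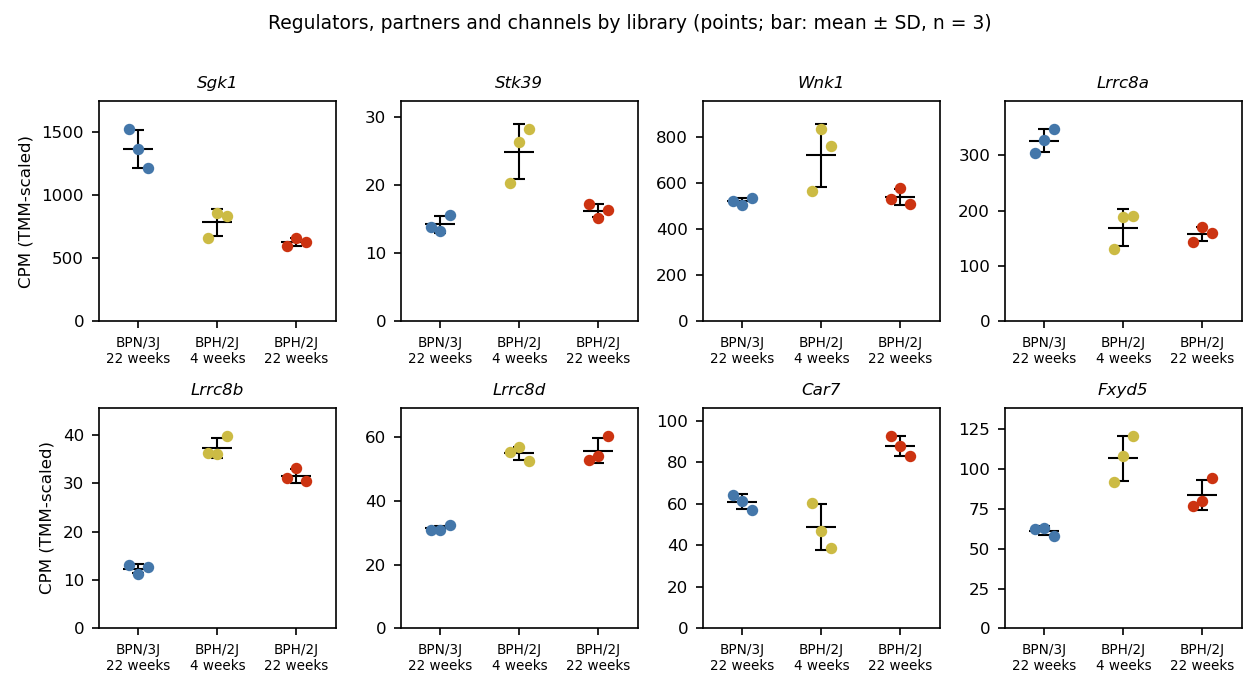
Levels in each library (points, TMM-scaled CPM) with the group mean and SD (n = 3) for regulators, partners and channels that work beside the transporters. Sgk1 and Lrrc8a are high in 22-week BPN/3J, Stk39 is highest in 4-week BPH/2J, and Car7 is highest in 22-week BPH/2J.

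The authors' deposited table holds their own fold changes and false discovery rates. Its headers name 22-week BPH/2J second, so the signs were turned here to read as 22-week BPH/2J minus the other group. In the authors' deposited table, 6 of all 48 members were higher and 10 lower at a false discovery rate below 0.05 between lines at 22 weeks. Of these, 12 were among the 15 called here, each in the same direction. The rest include Slc4a10 and Slc9a4, which had too few counts to be tested here, and Atp1a4, which was not called here. For the ages of BPH/2J the authors' deposited table had 10 of all 48 members higher and 8 lower, and all 17 called here were among them in the same direction. The share of all genes called by the authors was not counted here. With the sign turned in this way, Slc12a2 had a log2 difference of -2.33 between lines in the authors' deposited table, Slc12a5 of -1.83 and Slc26a10 of 1.08.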

How the data were processed

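Per the submitters' processing notes, the authors worked on the mouse build mm9 with TopHat2 2.0.13 and Bowtie2, featureCounts from Subread and edgeR, besides CASAVA 1.8.2 and FastQC; their settings, the annotation and the strandedness are not given in the sources used here. Per the labels' protocols, polyA RNA was read with 100-cycle reads. The authors deposited 1 table with raw counts per gene, the CPM made from them, log2 fold changes, p-values with false discovery rates, and the gene length in bases. The smallest gene total was 10 counts.

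Here the deposited counts were filtered by filterByExpr (15277 of 18094 genes kept), TMM-scaled and fitted once over 9 libraries with edgeR 4.0.16 in R 4.3.3, by the two-sided quasi-likelihood test; p-values were adjusted by Benjamini-Hochberg over the 15277 genes and called below 0.05. SE is the absolute log2 difference over the square root of F. The script was tested on simulated data. Groups came from the strain and age in the labels.

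Members and lists were chosen with earlier results of these data known. Named were members called between lines at 22 weeks or between ages with at least 1 CPM in the higher group, the 3 highest per kilobase, and from each pathway list the 2 called genes of smallest adjusted p per direction; other members are named where accounting for the whole set. Some members are counted but not reported here by name. Matched by identifier, 48 of 48 members were in GENCODE M21 and 12 shared exon bases with a neighbour. That annotation is of a later build than mm9. Same-numbered libraries of different groups did not deviate together (r from -0.161 to 0.0774 over 9 pairs), which gave no sign of pairing. With 3 libraries per group this cannot show that none were handled together. Alternatives were RLE and upper-quartile scaling, no filter and a filter of 1 CPM in 3 libraries, DESeq2 1.42.0, limma 3.58.1 (voom), a fit of the 2 groups compared, the replicate block, shares without length correction, and leaving out each library.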

Additional observations from a re-analysis of the deposited data

How the results depend on the processing

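Values were followed only for member differences called in the fit of 9 libraries and for the 3 highest members per kilobase. Calls gained by other members were therefore not counted here, and neither were values of a gene that left the test. Of 491 such values under settings that kept all libraries, 476 kept their direction and their side of the threshold. A further 14 lost the call, 1 gained it and 0 turned in sign. Without 1 library the numbers were 481 of 558, 72, 2 and 3. The 3 that turned were uncalled values between ages, with a range of -0.134 to 0.111 for Slc9a3r2 (2 values below 0) and -0.0377 to 0.0471 for Atp1b3. Scaling moved the median of all genes by less than 0.1. With a filter of 1 CPM in 3 libraries the members higher between lines at 22 weeks fell from 6 to 3, since Slc26a8 and Slc24a2 left the test and Slc12a9 lost its call (adjusted p = 0.0521), and leaving out 1 library gave 3 to 7. Members lower in that comparison ranged from 5 to 12 when 1 library was left out. Between ages the ranges were 8 to 12 higher and 6 to 8 lower. The percentage of all genes called under each alternative is not given, here or for the counts below. These counts therefore do not show whether the members moved apart from other genes. Shares without length correction, in 22-week BPN/3J, 4-week BPH/2J and 22-week BPH/2J, were 70.5%, 75.5% and 71.8% for Atp1b3 and 83.7%, 84.7% and 90.6% for Slc26a10.

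The replicate numbers gave no sign of pairing. The replicate block left 4 members higher and 9 lower between lines at 22 weeks and 10 higher and 9 lower between ages. For the lists the block gave 0 FXYD genes and 0 carbonic anhydrases lower between lines, 0 carbonic anhydrases lower with age and 1 exchanger partner higher between lines. The FXYD count lower between lines was also 0 with the filter of 1 CPM and with DESeq2, and the partner count higher between lines was 1 with RLE scaling. A fit of the 2 groups compared gave 2 partners and 1 channel higher with age. Without 1 library, WNK genes higher between lines were 0 to 1, and with age 1 to 2 rose and 1 to 4 fell. FXYD genes were 1 to 2 higher and 0 to 1 lower between lines, and 0 to 1 fell with age. Carbonic anhydrases were 1 to 2 higher and 0 to 1 lower between lines, and 0 to 1 fell with age. Partners were 1 to 3 higher between lines, and 1 to 4 rose with age. Channels were 1 to 2 higher and 1 to 6 lower with age. The cause of these changes was not tested. Depth limits the 7 untested members and those near 1 CPM.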

Other observations

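Volume-regulated and other chloride channels work beside the cotransporters. Of 18 such genes and epithelial sodium channel subunits, 15 were in the table and 14 were tested. Between lines at 22 weeks (38.0% of all tested genes called) 4 were higher and 2 lower, with a median log2 difference of -0.05. With age in BPH/2J (41.0% of all tested genes called) 2 rose and 4 fell, with a median of -0.10. The subunits of the LRRC8 volume-regulated anion channel went in different directions. Lrrc8a, its obligatory subunit, measured 305, 327 and 347 CPM in 22-week BPN/3J, 131, 188 and 189.7 CPM in 4-week BPH/2J and 144, 170.1 and 160.2 CPM in 22-week BPH/2J, so that every BPN/3J library was above every BPH/2J library. The difference between lines at 22 weeks was -1.05 ± 0.13 (SE, adjusted p = 0.000174). Lrrc8b measured 12.996, 11.2 and 12.8 CPM, 36.2, 35.95 and 39.7 CPM and 31.003, 33.1 and 30.5 CPM in the same order, and Lrrc8d measured 30.9, 30.8 and 32.2 CPM, 55.2, 56.8 and 52.6 CPM and 52.8, 53.97 and 60.2 CPM. Both were lower in BPN/3J than in every BPH/2J library, with differences at 22 weeks of 1.35 ± 0.08 (SE, adjusted p = 9.67e-07) and 0.83 ± 0.07 (SE, adjusted p = 8.77e-06). Lrrc8c fell with age, at -0.34 ± 0.10 (SE, adjusted p = 0.0191), a call that was lost without replicate 2 or 3 of 4-week BPH/2J or replicate 3 of 22-week BPH/2J (adjusted p = 0.0669 to 0.0915).

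Among the intracellular chloride-proton exchangers, Clcn4-2 was lower between lines at 22 weeks, at -0.42 ± 0.07 (SE, adjusted p = 0.00101). Clcn5 fell with age, at -0.60 ± 0.10 (SE, adjusted p = 0.001), and Clcn3 rose, at 0.21 ± 0.05 (SE, adjusted p = 0.00734). Ano10, of the anoctamin family, rose with age, at 0.31 ± 0.09 (SE, adjusted p = 0.0241), a call that was lost without replicate 2 or 3 of 4-week BPH/2J or replicate 1 or 3 of 22-week BPH/2J and under 1 other setting (adjusted p = 0.0501 to 0.0898).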
